A study of Mus musculus with 12 samples.

Results

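Promoter chromatin of the mouse fetal liver was set against open chromatin of the red cell precursors that the organ produces. The data are the peak lists of 2 ChIP-seq libraries for trimethylated lysine 4 of histone H3 (H3K4me3), made from whole fetal liver, and of 2 ATAC-seq libraries of proerythroblasts. These are 4 of the 12 samples of the series, of which 11 had a peak list, and they were chosen by their titles. H3K4me3 replicates 1 and 2 held 14027 and 16886 regions, and ATAC replicates 1 and 2 held 18441 and 28980 peaks, on chromosomes 1 to 19, X and Y. Together these are 78334 of the 353805 peaks deposited for the series.

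All embryos were C57BL/6 mice at embryonic day 14.5, with no treatment or altered gene named in the labels. The ChIP libraries came from whole liver and the ATAC libraries from a single precursor population, so every comparison below spans different cell populations and different assays. Whole fetal liver holds blood cells of many stages together with hepatocytes, endothelium and stroma, and a region marked in any of them can be called. In such bulk chromatin fewer marked cells and less of the mark per cell cannot be told apart. The sources used here do not say how the proerythroblasts were isolated. The labels give 2 catalogue numbers for the H3K4me3 antibody, which differ between the sample description and the protocol. No label says that libraries came from separate litters, so the spread between libraries may be technical. The identity of the tissue and of the precursors was not checked against marker genes, because gene annotation on the build of the files was not used here.

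H3K4me3 is laid down on nucleosomes around transcription start sites by SET1 and MLL methyltransferases. It is found at active promoters and also at poised CpG-rich promoters of genes that are silent. At an active promoter the start site itself is depleted of nucleosomes and is flanked by marked ones, so the open site and the mark occupy the same region but not the same bases. ATAC-seq uses a transposase that inserts adapters into DNA free of nucleosomes, and its peaks fall at promoters and at enhancers. The proerythroblast is the first red cell precursor that can be recognised by its shape, and at this stage of gestation most red cells are made in the fetal liver.

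H3K4me3 lists had fewer and wider regions than the ATAC lists. H3K4me3 covered 25.8 Mb in replicate 1 and 33.4 Mb in replicate 2, while ATAC peaks covered 9.71 Mb in replicate 1 and 14.2 Mb in replicate 2. The mean covered length was 29.6 ± 5.41 Mb for H3K4me3 and 12.0 ± 3.20 Mb for ATAC (SD, n = 2 each), and the number of peaks was 15457 ± 2022 and 23711 ± 7452. Libraries of the 2 kinds did not overlap in either measure, but 2 libraries against 2 cannot give a two-sided exact permutation p below 0.33, which is the value of both tests. For the same reason the shares below are given for each pairing of an H3K4me3 library with an ATAC library, as descriptions without a test. The lists hold no read counts, so the depth of each library is unknown.

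The median H3K4me3 region was 1602 bp wide in replicate 1 and 1679 bp in replicate 2, and the widest reached 19398 and 26723 bp. By width, replicate 1 had 3987 regions under 1 kb, 4969 of 1 to 2 kb, 4236 of 2 to 4 kb and 835 over 4 kb. Replicate 2 had 4901, 5176, 5347 and 1462 in the same order. Wide regions recurred between libraries and narrow ones often did not. From 2 to 4 kb all regions of replicate 1 and 99.0% of those of replicate 2 met a region of the other library, whereas under 1 kb 94.1% of the regions of replicate 1 but 43.9% of those of replicate 2 did so.

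Most H3K4me3 regions of fetal liver held an ATAC summit in proerythroblasts, and the share depended steeply on the width of the region. A region was called open when it held the summit, meaning the base of highest signal, of at least 1 ATAC peak. Of the regions of H3K4me3 replicate 1, 74.0% were open with ATAC replicate 1 and 79.0% with ATAC replicate 2. Of the regions of H3K4me3 replicate 2, 67.9% were open with ATAC replicate 1 and 74.8% with ATAC replicate 2. The mean of the 4 pairings was 73.9%, with an SD of 3.67 points between H3K4me3 libraries and 4.21 points between ATAC libraries (n = 2 each). As a background, 0.688% of all 1 kb windows of the genome held a summit of ATAC replicate 1 and 1.08% a summit of replicate 2, and among windows without H3K4me3 the shares were 0.149% and 0.446%.

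The narrowest regions were mostly closed and the widest nearly all open, in each of the 4 pairings. Under 1 kb, 34.1% and 43.4% of the regions of H3K4me3 replicate 1 were open with ATAC replicates 1 and 2, and 26.5% and 39.0% of those of H3K4me3 replicate 2. From 1 to 2 kb the open shares were 83.8% and 88.6% in H3K4me3 replicate 1 and 73.2% and 81.1% in replicate 2. From 2 to 4 kb they were 95.5% and 97.4% in replicate 1 and 92.5% and 95.0% in replicate 2. The pairings of each width class stayed below those of the next wider class. Over 4 kb, 820 and 826 of the 835 regions of replicate 1 were open, and 1431 and 1445 of the 1462 regions of replicate 2. These are shares of 98.2% and 98.9% in replicate 1 and 97.9% and 98.8% in replicate 2, with exact Clopper-Pearson 95% intervals from 97.0% to 99.5%, which cover counting error only.

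The rise was gradual at the narrow end and flat beyond 2 kb. In steps of 250 bp, the mean open share was 8.19% for regions up to 250 bp, 19.9% from 250 to 500 bp, 38.0% from 500 to 750 bp and 55.9% from 750 to 1000 bp. It was 69.1% from 1000 to 1250 bp, 90.1% from 1750 to 2000 bp and 97.3% from 3750 to 4000 bp. A narrow region also meets an ATAC peak without holding its summit more often than a wide one. Such regions made up 11.1% of those under 1 kb and 1.49%, 0.294% and 0.197% of the 3 wider classes.

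**Figure D1:**
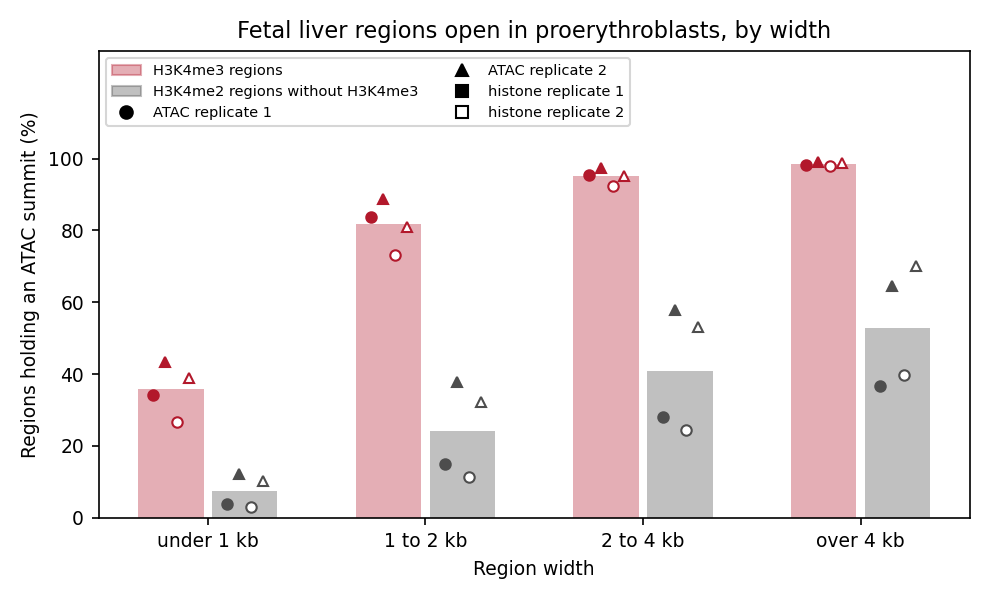
Share of regions that hold an ATAC summit of proerythroblasts (vertical axis, percent) by region width (horizontal axis), for H3K4me3 regions (red) and for H3K4me2 regions that meet no H3K4me3 (grey). Bars are means of 4 library pairings and points the single pairings; the H3K4me3 bars rise in the order 35.8%, 81.7%, 95.1% and 98.5%, and each stands above the H3K4me2 bar of its width class.

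Regions of the same width without H3K4me3 were less often open. H3K4me2, the dimethylated form of the same lysine, lies at promoters and enhancers, and its regions that met no H3K4me3 region of either library served for comparison. Of these, 3.13% to 12.1% were open under 1 kb, 11.3% to 37.7% from 1 to 2 kb, 24.4% to 57.8% from 2 to 4 kb and 36.8% to 70.2% over 4 kb, over the 4 pairings. In every width class the lowest pairing of H3K4me3 stood above the highest pairing of H3K4me2 without H3K4me3. The mean open shares of H3K4me3 regions, 35.8%, 81.7%, 95.1% and 98.5% from narrow to wide, compare with 7.35%, 24.1%, 40.8% and 52.8% for those H3K4me2 regions. This difference was not tested, since an exact permutation test of 2 libraries against 2 cannot go below 0.33. The titles give H3K4me3 replicate 1 the same tag as H3K4me2 replicate 2, and H3K4me3 replicate 2 the same tag as H3K4me2 replicate 1 and H3K27ac replicate 1, without saying what the tags mark, and the comparison did not use them. H3K27ac regions without H3K4me3 gave 2.98%, 14.1%, 31.3% and 51.0%, and H3K4me1 regions without H3K4me3 gave 3.69%, 11.1%, 24.0% and 41.7%.

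The authors' fold enrichment of a region also went with openness, and it did so within a width class. It gives the ChIP signal over the peak caller's background. It rises with width, with a Spearman rho across regions of 0.715 in H3K4me3 replicate 1 and 0.744 in replicate 2. All regions of a library share its depth. By quartile of fold enrichment within each library, weakest first, the mean open share was 37.1%, 63.3%, 96.0% and 99.3%. Among regions of 1 to 2 kb the same quartiles gave 54.0%, 73.7%, 95.4% and 98.7%, and among those of 2 to 4 kb 65.5%, 78.4%, 98.2% and 99.7%. In the means of both width classes the widest step was that between the second and the third quartile. Under 1 kb the 3 lower quartiles gave 30.2%, 42.3% and 71.4%, so the open share rose with strength among narrow regions too.

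Regions called in a single H3K4me3 library were less often open than those called in both. Of the 240 regions found only in H3K4me3 replicate 1, 13.3% and 18.8% were open with ATAC replicates 1 and 2, and of the 3281 found only in replicate 2, 23.6% and 35.4%. Of the regions met in both libraries, 75.1% to 84.3% were open over the 4 pairings. Under 1 kb the difference was smaller, at 12.7% to 32.0% for single-library regions and 34.6% to 47.9% for the others. The single-library regions had a median width of 364.5 bp in replicate 1 and 540 bp in replicate 2.

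The number of open sites in a region grew with its width, but more slowly than the width itself. The mean number of ATAC summits per region was 0.370 under 1 kb, 0.912 from 1 to 2 kb, 1.22 from 2 to 4 kb and 1.86 over 4 kb. The SD between ATAC libraries was 0.0815, 0.0719, 0.0913 and 0.230 and that between H3K4me3 libraries 0.0470, 0.0733, 0.0534 and 0.0762 (n = 2 each). Per kb of length the numbers ran the other way, with 0.622, 0.609, 0.448 and 0.343 summits. The first 2 of these did not differ beyond the spread of the ATAC libraries, which was 0.137 and 0.0481.

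Regions of 1 to 4 kb mostly held a single site. From 1 to 2 kb 72.4% of regions held exactly 1 summit and 9.22% held 2 or more, and from 2 to 4 kb 71.0% held 1 and 24.1% held 2 or more. Over 4 kb 38.9% held 1, 37.8% held 2 and 21.8% held 3 or more. Regions over 4 kb held 1.75 summits of ATAC replicate 1 and 2.08 of replicate 2 in H3K4me3 replicate 1, and 1.65 and 1.97 in H3K4me3 replicate 2. Counting only open regions, the mean number was 1.04, 1.12, 1.29 and 1.89 from narrow to wide, against 1.01, 1.04, 1.14 and 1.27 in H3K4me2 regions without H3K4me3.

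**Figure D2:**
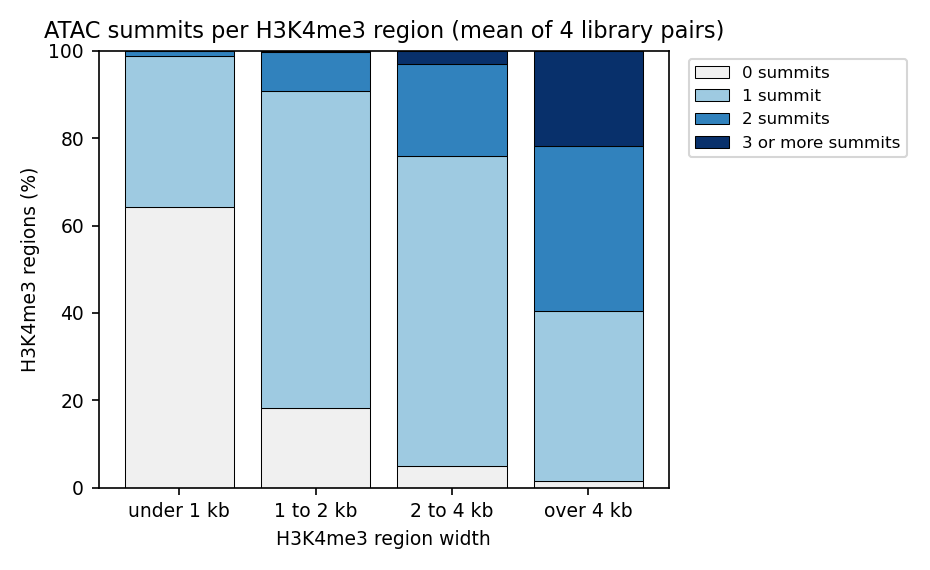
Share of H3K4me3 regions (vertical axis, percent, mean of 4 library pairings) that hold 0, 1, 2 or 3 or more ATAC summits, by region width. Regions with 1 summit make up 72.4% and 71.0% of the middle width classes, and regions with 3 or more make up 21.8% of those over 4 kb and 3.10% of those of 2 to 4 kb.

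Read the other way, regions with more summits were wider. The median width was 664 bp for regions with no summit, 1826 bp with 1, 2782 bp with 2, 4209 bp with 3 and 5895 bp with 4, as means of the 4 pairings. Over all widths the median H3K4me3 fold enrichment was 8.70 with 1 summit, 10.1 with 2 and 11.0 with 3. From 2 to 4 kb, the only class examined, it did not rise beyond the first summit. Median width did rise within that class, from 2580 bp with 1 summit to 3074 bp with 3. Among regions of 2 to 4 kb the median H3K4me3 fold enrichment was 4.37 with no summit, 11.3 with 1, 10.7 with 2 and 10.5 with 3. The stretch of an open region under ATAC peaks rose with width, with medians of 360.5, 661, 915 and 1089 bp from narrow to wide. It rose more slowly than the width, since its share of the bases of open regions fell from 55.1% under 1 kb to 20.1% over 4 kb. In open and closed regions together ATAC peaks took 26.6% of the bases under 1 kb. They took 36.3% and 31.8% in the middle classes and 19.8% over 4 kb.

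Open sites were not stronger in the widest regions. The median fold enrichment of the best ATAC peak in an open region was 6.16 under 1 kb, 8.53 from 1 to 2 kb, 9.0 from 2 to 4 kb and 7.38 over 4 kb. Across open regions, region width and the fold enrichment of the best ATAC peak had Spearman correlations of 0.0528 to 0.225 in the 4 pairings. H3K4me3 fold enrichment and the same ATAC value gave 0.302 to 0.435. Both are descriptions across regions of a single genome, which are not replicates.

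The 2 ATAC libraries mostly gave the same number of summits in a region. Of 13600 consensus H3K4me3 regions, meaning merged stretches that hold a region of both H3K4me3 libraries, 74.5% had equal numbers in both ATAC libraries. ATAC replicate 2, the longer list, had more in 19.2% and replicate 1 had more in 6.34%. Over 4 kb the numbers were equal in 57.8% of regions. ATAC peaks shared by both libraries had summits a median of 19 bp apart inside H3K4me3 (13347 peaks) and 24 bp apart outside it (3413 peaks). The larger shifts were more frequent inside, where 85.1% of summits lay within 100 bp of each other, against 89.3% outside.

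ATAC summits lay in the body of H3K4me3 regions and were sparse at their edges. Each region was cut into 5 zones by distance from its centre, each holding 20% of its length. Of the summits in H3K4me3 replicate 1, 26.1% of those of ATAC replicate 1 and 25.0% of those of replicate 2 lay in the central zone. In H3K4me3 replicate 2 the shares were 27.5% and 26.5%. The outermost zone held 7.48% and 8.93% in H3K4me3 replicate 1 and 5.50% and 7.48% in replicate 2, so the outer share was below the central one in every pairing. The next zone outward from the centre held 27.3% on average, so over all widths the excess over 20% was a broad plateau and not a peak at the midpoint.

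The placement changed with width. The central zone held 26.6%, 27.3%, 27.5% and 20.4% of summits from the narrowest to the widest class, and the outermost zone 16.0%, 6.34%, 4.53% and 10.8%. Over 4 kb the central share was close to the 20% of length that this zone spans, from 20.1% to 21.0% over the pairings. The median distance of a summit from the region's centre was 130, 262, 477 and 1210 bp in the same order.

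**Figure D3:**
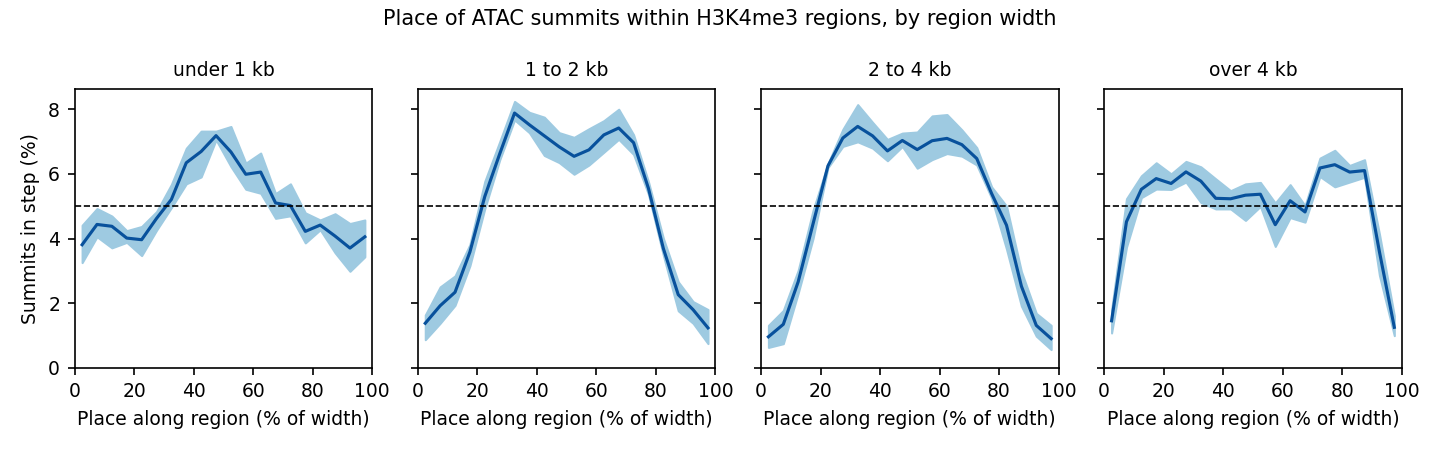
Place of ATAC summits along H3K4me3 regions from the lower to the higher coordinate (horizontal axis, percent of region width) in 20 equal steps, with the share of summits in each step (vertical axis, percent), for 4 width classes. Lines are means of 4 library pairings, bands their range and the dashed line an even spread. Regions of 1 to 4 kb show a plateau with a pair of shallow shoulders and sparse flanks. Regions over 4 kb hold somewhat more summits between centre and ends than at the centre, and few in their last steps.

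In base pairs, the outermost 250 bp at either end were the sparse part. From 1 to 2 kb 14.2% of summits lay within 250 bp of an edge, which is 32.7% of the length. From 2 to 4 kb the values were 3.94% of summits and 18.0% of length, and over 4 kb 2.17% and 8.77%. Under 1 kb, where these ends make up 67.8% of the length, they held 62.6% of summits. The median distance from a summit to the nearest edge was 196, 478, 852 and 1379 bp from narrow to wide.

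Across the edge the density of summits fell steeply, and its peak lay well inside. Averaged over the pairings, the outermost 250 bp of regions held 265 summits per Mb, the next 250 bp held 535, and the stretch from 500 to 750 bp inside held 663. In 3 of the 4 pairings that step was the highest, and with H3K4me3 replicate 2 and ATAC replicate 1 the next step inward was. The profile pools all widths. Steps beyond 500 bp inside come only from regions over 1 kb, which were more often open, so the steps do not compare the same regions. Outside, the first 250 bp held 118 per Mb, the next 23.7 and the stretch from 750 to 1000 bp held 9.05. Over all bases, H3K4me3 regions held 485 summits per Mb and the rest of the genome 3.74. The 4 pairings kept the same shape, while outside the regions the 2 pairings with ATAC replicate 2 stood above the 2 with replicate 1.

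**Figure D4:**
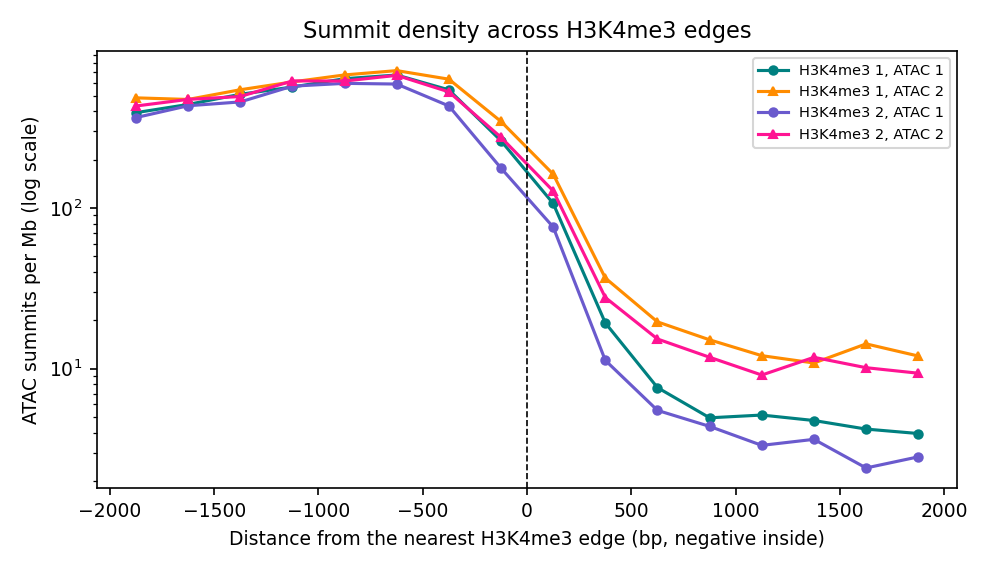
Density of ATAC summits (vertical axis, summits per Mb, log scale) by distance from the nearest H3K4me3 edge (horizontal axis, bp, negative inside the region) in steps of 250 bp, with a line for each library pairing. With all region widths pooled, the mean density is highest from 500 to 750 bp inside, at 663 per Mb. It falls to 118 per Mb in the first step outside and 23.7 in the second.

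Density outside did not fall evenly with distance. It averaged 8.43 summits per Mb from 2 to 5 kb outside a region, 11.8 from 5 to 10 kb, 7.42 from 10 to 50 kb, 3.39 from 50 to 100 kb and 0.678 beyond 100 kb. In each of the 4 pairings the stretch from 5 to 10 kb was above both of its neighbours. It had 6.18 and 4.87 per Mb with ATAC replicate 1 and 19.6 and 16.5 with replicate 2, so the ATAC libraries differed from each other by more than this rise.

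Over all widths, H3K4me2 regions without H3K4me3 had more of their summits near the middle. Their central zone held 33.3% to 36.8% of summits over the 4 pairings, and that of H3K4me3 regions held 25.0% to 27.5%, with no overlap. By width, from narrow to wide, the means for H3K4me2 without H3K4me3 were 31.0%, 40.0%, 32.0% and 25.7%. In the wide classes the pairings overlapped, at 25.2% to 38.8% from 2 to 4 kb and 20.0% to 33.5% over 4 kb for H3K4me2 without H3K4me3. This difference was not tested either.

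From 2 kb up, in regions with several summits, the strongest was less often central than the others. Among regions of 2 to 4 kb the strongest of 2 or more summits fell in the central zone in 22.2% of cases and the other summits in 30.8%. A sole summit of such regions did so in 28.2%. Over 4 kb the shares were 17.7% for the strongest and 23.1% for the others, with 18.2% for sole summits. From 1 to 2 kb the order of the means was the other way, at 24.6% for the strongest and 21.4% for the others. The pairings were not alike in this, with 23.5% against 24.2% in H3K4me3 replicate 1 with ATAC replicate 1. Over all widths the strongest of 2 or more had a median fold enrichment of 7.48 and a median width of 592 bp, and the others 4.02 and 298 bp.

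Where a region held exactly 2 summits, these stood on opposite sides of its centre less often the wider the region. This was so for 90.9% of such regions under 1 kb, 76.4% from 1 to 2 kb, 61.7% from 2 to 4 kb and 55.2% over 4 kb, where the pairings ran from 50.3% to 59.1%. Neighbouring summits in the same region were a median of 418, 544, 750 and 1151 bp apart in the same order. They were never closer than 168 bp, and cannot be further apart than the region is wide. Both trends are therefore limited in advance by region width, and no expected value was set beside them. The stronger of the pair exceeded the weaker by a median ratio of 1.75 in fold enrichment.

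ATAC peaks at H3K4me3 were about 2.10 times as wide as peaks elsewhere. Their median width was 595 bp at H3K4me3 and 284 bp away from it in ATAC replicate 1, and 627 bp and 293 bp in replicate 2, both read against H3K4me3 replicate 1. Against H3K4me3 replicate 2 the medians were 562 and 268 bp in ATAC replicate 1 and 584 and 284 bp in replicate 2. The mean difference was 310 bp, with an SD of 18.0 bp between H3K4me3 libraries and 10.3 bp between ATAC libraries, so it was far larger than the spread between libraries. Peaks over 500 bp made up 60.0% of those at H3K4me3 and 10.2% of those away from it.

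A stronger ATAC peak is called wider, and peaks at H3K4me3 were also stronger, with a median fold enrichment of 7.41 against 5.07 away from it. Within quartiles of ATAC fold enrichment the difference was positive in each pairing and smallest among the weakest peaks. From the lowest to the highest quartile the mean median width was 270, 412, 652 and 787 bp at H3K4me3 and 234, 273, 361 and 497 bp away from it. The differences were 35.9, 139, 291 and 291 bp. In peaks shared by both ATAC libraries the medians were 641 bp at H3K4me3 and 343.5 bp away.

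**Figure D5:**
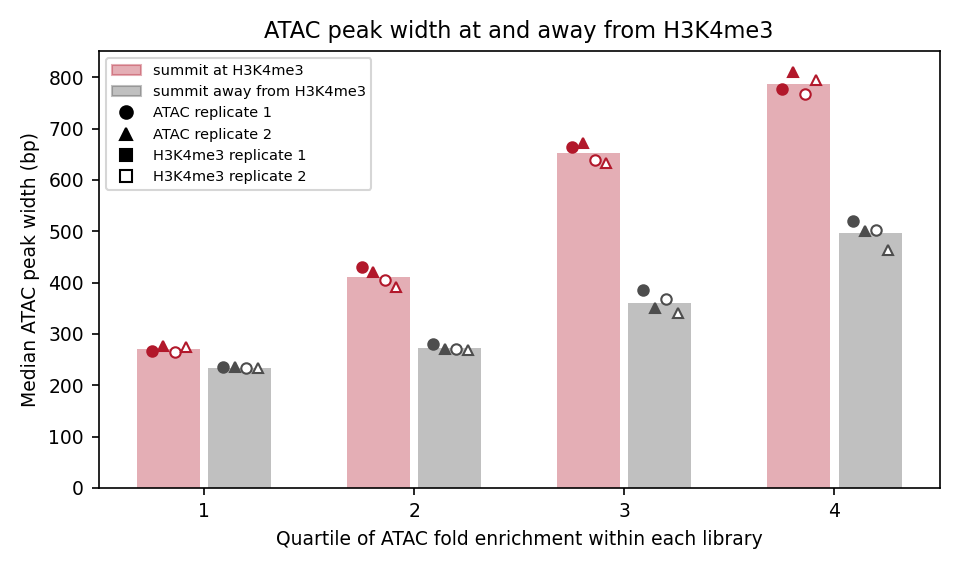
Median width of ATAC peaks (vertical axis, bp) with the summit at H3K4me3 (red) and away from it (grey), by quartile of ATAC fold enrichment within each library (horizontal axis, weakest first). Bars are means of 4 library pairings and points the single pairings; the widths at H3K4me3 average 270, 412, 652 and 787 bp and those away 234, 273, 361 and 497 bp.

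The widest ATAC peaks lay almost all at H3K4me3. The share of peaks with the summit inside H3K4me3 was 34.7% at 200 to 300 bp, 53.0% at 300 to 500 bp, 83.9% at 500 to 800 bp and 97.9% from 800 bp up, as means of the pairings. Peaks of 800 bp or more lay inside in 95.8% to 99.1% of cases. Among peaks at H3K4me3 the median width was 397 bp in regions under 1 kb, 599 bp and 718 bp in the middle classes and 479 bp in regions over 4 kb, where more peaks share a region. These medians pool all peaks of a region. Peaks that were alone in their region had medians of 878 bp from 2 to 4 kb and 930 bp over 4 kb. The widest ATAC peak of each open region had medians of 822.5 bp and 748 bp in these classes. Of the peaks away from H3K4me3, those with H3K27ac, a mark of active promoters and enhancers, had a median of 325 bp, those with another mark 274.5 bp and those with no mark 245 bp.

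From the side of the ATAC lists, the share of summits inside H3K4me3 differed more between ATAC libraries than between H3K4me3 libraries. It was 67.9% for ATAC replicate 1 and 48.9% for replicate 2 in the regions of H3K4me3 replicate 1, and 75.4% and 56.2% in those of H3K4me3 replicate 2. The mean was 62.1%, with an SD of 13.5 points between ATAC libraries and 5.23 points between H3K4me3 libraries. Limited to peaks shared by both ATAC libraries, the shares were 71.4% and 71.2% in H3K4me3 replicate 1 and 79.0% and 78.8% in replicate 2. The SD between ATAC libraries was then 0.149 points. Shared peaks overlap each other and so are largely the same sites, which makes a small SD all but certain beforehand. Of the peaks found in 1 ATAC library only, 18.7% to 32.6% lay inside. An ATAC peak whose summit was inside lay wholly within the region in 85.2% to 92.5% of cases.

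A minority of H3K4me3 regions found in both liver libraries had no open site in proerythroblasts. Of the 13600 consensus regions 1673, or 12.3% (exact 95% interval 11.8 to 12.9), met no ATAC peak of either library by as much as 1 bp. A further 166 met a peak of ATAC replicate 1 only, 1021 a peak of replicate 2 only and 10740 a peak of both. The count rests on the lists. Without ATAC replicate 2, the longer list, 2694 regions were closed, and without H3K4me3 replicate 1 the number was 3367 of 16886. At a −log10 q of at least 5 in all lists it was 518 of 10160.

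Closed regions were narrower and weaker than the rest. Their median width was 1041 bp, against 2157 bp for the 11927 regions that met an ATAC peak, and their median H3K4me3 fold enrichment 3.77 against 8.91. By width, 789 of 1955 regions under 1 kb were closed (40.4%), 648 of 4719 from 1 to 2 kb (13.7%), 225 of 5408 from 2 to 4 kb (4.16%) and 11 of 1518 over 4 kb (0.725%). By decile of fold enrichment, 37.4%, 35.0%, 29.4%, 14.7% and 3.75% were closed in the 5 lowest and 1.25% down to 0.147% in the 5 highest. At a matched width the closed regions were still weaker from 1 kb up. Their median fold enrichment was 3.60 against 3.74 under 1 kb, 3.91 against 6.66 from 1 to 2 kb, 4.07 against 10.9 from 2 to 4 kb and 4.12 against 11.9 over 4 kb.

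H3K27ac was rarer on closed regions than on the rest in every width class. An H3K27ac peak lay on 17.4% and 15.2% of closed regions in H3K27ac replicates 1 and 2, against 79.6% and 76.3% of the others. The means were 16.3% ± 1.52 and 77.9% ± 2.32 (SD, n = 2). Under 1 kb H3K27ac lay on 13.6% of closed regions and 38.5% of the others, and from 2 to 4 kb on 20.2% and 90.4%. The width classes do not match the strength of H3K4me3. Regions with an H3K27ac peak in either library had a higher median H3K4me3 fold enrichment than those without. It was 4.33 against 3.67 among closed regions and 10.2 against 4.73 among the others. A comparison at equal strength was not made. H3K4me1, a mark of enhancers and promoter flanks, lay on 52.8% ± 18.9 of closed regions and 95.3% ± 4.06 of the others (SD, n = 3), with 72.4%, 34.7% and 51.3% of closed regions in its replicates 1 to 3. H3K4me2 lay on 97.6% ± 1.94 of closed regions and 99.9% of the others (n = 2), so near to all that it leaves little room for a difference. All these marks were measured in whole liver, so they do not tell in which cells a closed region is marked.

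Closed regions, which by definition hold no ATAC peak, varied widely in their distance from one. The median distance to the nearest ATAC peak of either library was 18354 bp, with 4.72% of closed regions within 1 kb of a peak, 23.1% within 5 kb and 28.3% beyond 50 kb. The nearest other consensus H3K4me3 region lay a median of 37.2 kb from closed regions and 23.0 kb from the others, although 14.7% of closed regions and 14.6% of the others had one within 5 kb. The closed share ran from 9.05% on chromosome 7 to 16.5% on chromosome 18 among autosomes, and was 14.0% of 415 regions on chromosome X. None of the 4 regions on chromosome Y was closed, too few for a share.

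The widest closed regions were weakly marked, and some had neighbours in open chromatin. All positions are of build mm9, counted from 1, without gene annotation. The widest, chr2:115887857-115893549 (5.693 kb), had an H3K4me3 fold enrichment of 3.51 ± 0.401 (SD, n = 2) and no H3K27ac or H3K4me1 peak, and its nearest ATAC peak was 451.475 kb away. The second, chr7:77501622-77507306 (5.685 kb), had 3.44 ± 0.332, a distance of 730.868 kb and no H3K27ac. The third, chr17:36002305-36007908 (5.604 kb), lay 2.839 kb from an ATAC peak, with a fold enrichment of 4.49 ± 0.909 and no H3K27ac. The widest closed regions thus included isolated ones and ones beside open sites. The fourth, chr14:69885907-69891004 (5.098 kb), ended 24 bp from an ATAC peak, and the last of the 5, chr18:34678726-34683633 (4.908 kb), 2.541 kb from one. Both of these carried H3K27ac in 2 of 2 libraries. The widest and the last of the 5 were each 2 separate peaks in H3K4me3 replicate 1, merged through 1 peak of replicate 2.

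The strongest closed regions differed in the acetylation they carried. The strongest, chr5:3892615-3894452 (1.838 kb), had a fold enrichment of 14.8 ± 4.95, with 11.3 in H3K4me3 replicate 1 and 18.3 in replicate 2. It was followed by chr5:4192028-4193597 (1.57 kb), with 14.2 ± 2.62, on the same chromosome. Both, and chr7:111462895-111464041 (1.147 kb, 12.7 ± 4.56), carried H3K27ac in 2 of 2 libraries and H3K4me1 in 3 of 3, with the nearest ATAC peak 33.45, 86.96 and 37.155 kb away. The others were short. They were chr4:132652565-132653024 (460 bp, 13.6 ± 0.422) and chr8:93410878-93411341 (464 bp, 13.2 ± 1.72), with H3K4me2 in 2 of 2 libraries but neither H3K27ac nor H3K4me1. Repeats and sequence prone to artefacts were not removed from the lists, and their part in these calls was not tested.

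The 5 consensus regions with most summits were 7.676 to 12.988 kb wide. In H3K4me3 replicate 1 all except chr11:84631536-84643254 were 2 separate peaks, merged through 1 peak of replicate 2. The first 3 had the same mean over both ATAC libraries and are ordered by width. The widest of them, chr11:98441371-98450318 (8.948 kb), had 6 summits of ATAC replicate 1 and 5 of replicate 2 and an H3K4me3 fold enrichment of 8.33 ± 0.901. Next were chr7:16984044-16992050 (8.007 kb) and chr10:127527914-127535589 (7.676 kb), with 5 summits of replicate 1 and 6 of replicate 2 each. In chr13:22124675-22137662 (12.988 kb) the libraries differed, with 2 and 8 summits, and chr11:84631536-84643254 (11.719 kb) held 4 and 6. All 5 carried H3K27ac, H3K4me1 and H3K4me2 in each library of those marks.

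Other regions of like width held a single site in each ATAC library. The widest was chr11:23973766-23983912 (10.147 kb), whose sole summit lay at 25.9% of its width from the lower coordinate in ATAC replicate 1 and at 26.8% in replicate 2. In chr11:31769566-31779621 (10.056 kb), with an H3K4me3 fold enrichment of 23.0 ± 5.39, the sole summit lay at 11.9% in both. In chr19:5796153-5804427 (8.275 kb) it lay at 89.9% and 89.8%. The remaining regions of this set, chr11:109470181-109478585 (8.405 kb) and chr11:120091371-120099593 (8.223 kb), had it between 33.6% and 36.7%. In all 5 the summit was off the central zone, and the libraries placed it alike. The last of these regions was 2 separate peaks in H3K4me3 replicate 1 and 1 in replicate 2, and had no H3K27ac peak. The other 4 carried H3K27ac in both libraries.

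Among regions under 1 kb that held a summit of both ATAC libraries, the 3 with the highest H3K4me3 fold enrichment lay on chromosome 8. All were between positions 19784424 and 20020597. They were chr8:19892359-19893249 (12.5 ± 0.306), chr8:19784424-19785386 (11.5 ± 1.90) and chr8:20019655-20020597 (10.6 ± 0.628), with H3K27ac and H3K4me2 but no H3K4me1 peak in any library. In the first of them the summit lay at 52.0% of the width in ATAC replicate 1 and at 24.2% in replicate 2. The other 2, chr11:119129085-119129884 (10.0 ± 2.52) and chr1:197067599-197068574 (9.74 ± 0.266), also carried H3K27ac in both libraries. Repeats were not removed here either, and their part in these 5 calls was not tested.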

How the data were processed

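ChIP-seq for histone marks of whole fetal liver and ATAC-seq of proerythroblasts had been turned into 1 peak list per library by the authors. Build mm9 and the tools Trimmomatic 0.32, Bowtie 1.0.1, SAMtools and MACS2 are named in the submitters' processing notes. Settings, the control, the version of MACS2 and any shift of ATAC cut sites were not given in the sources used here. For each peak the authors deposited a score, a linear ratio of signal to the background of the peak caller (fold enrichment), a −log10 p and a −log10 q and, in the ATAC lists, the distance of the summit from the start. Being the authors' own, such values were used only to describe, rank or filter the peaks of a list. Depth is unknown, since no read counts are in the lists, and shorter lists may come from shallower libraries.

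Only peaks on chromosomes 1 to 19, X and Y entered, and mitochondrial peaks were set aside. Coordinates were kept in mm9, whose annotation and sequence were not used here, so the planned check of cell type markers was not run and no genes are named. Each H3K4me3 list was read against each ATAC list, and the 4 pairings were averaged, with the SD over the 2 libraries of each kind. Overlap means at least 1 bp. Consensus regions are merged stretches that hold a peak of both H3K4me3 libraries. Libraries were compared by a two-sided exact permutation test where a test is given, and intervals on shares are exact Clopper-Pearson 95% intervals of counting error only.

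The regions named are the 5 widest and the 5 of highest mean H3K4me3 fold enrichment among closed consensus regions, the 5 with most ATAC summits, the 5 widest with exactly 1 summit of each ATAC library and, of those under 1 kb with a summit of both ATAC libraries, the 5 of highest fold enrichment. The comparisons and lists were chosen with earlier results of these data known. Alternatives were a −log10 q of at least 5, equal numbers of ATAC peaks, each library left out, neighbouring H3K4me3 peaks joined, overlap in place of summits, consensus regions, sole or strongest summits, quartiles of fold enrichment, shared ATAC peaks, a distance of 1 kb for closed regions, and pairing by replicate number. Python 3.11.15, numpy 2.4.6, pandas 2.3.3, scipy 1.17.1 and matplotlib 3.10.9 were used. The code was tested on simulated regions and against bedtools 2.31.1.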

Additional observations from a re-analysis of the deposited data

Results flagged for a closer look

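H3K4me3 replicate 1 listed 4 peaks on the mitochondrial chromosome, which lies outside the chromosomes compared and whose DNA is not wrapped on histones. H3K4me3 replicate 2 listed 1, and ATAC replicates 1 and 2 listed 0 each. The value of replicate 1 is above 3, the floor set for counts, which is no test of whether it is exceptional. None of these peaks entered a result.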

How the results depend on the processing

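Of the values recomputed under alternatives other than leaving out a library, 82 held, 19 moved and 0 reversed. Why values moved was not tested. Only the width difference and the differences in covered length and peaks have a sign, so no share or count could reverse. Those that held include differences that pairing by replicate number cannot change. They also include values after joining H3K4me3 peaks within 1 kb, which removed only 24 and 7 regions in replicates 1 and 2. Holding means staying within the spread between libraries or, where there is none, within 1.5 times the number of closed regions and with the same sign of the differences in covered length and peaks. At a −log10 q of at least 5 the open share was 86.7% in all and 47.2% under 1 kb, with 0.490 summits per region under 1 kb, a width difference of 343 bp at minus away from H3K4me3, and 518 closed regions. With 18441 peaks in both ATAC lists there were 0.829 summits per region (0.554 per kb) from 1 to 2 kb and 1.12 (0.410 per kb) from 2 to 4 kb, and 97.2% of regions over 4 kb were open. Joining H3K4me3 peaks within 3 kb, an alternative chosen after seeing the data, gave 97.6% open over 4 kb and 24.8% of summits in the central zone. Overlap of 1 bp gave 46.8% open under 1 kb, consensus regions 81.9% open in all, and regions with a sole summit 27.7% in the central zone. Within quartiles of ATAC fold enrichment the width difference was 35.9, 139, 291 and 291 bp.

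Leaving out each library in turn gave open shares of 71.0% to 76.9% in all and, from narrow to wide, of 30.3% to 41.2%, 77.1% to 86.2%, 93.8% to 96.4% and 98.0% to 98.9%. Summits per region ran from 0.313 to 0.428, 0.860 to 0.964, 1.16 to 1.29 and 1.70 to 2.03, and per kb from 0.525 to 0.719, 0.575 to 0.643, 0.425 to 0.472 and 0.313 to 0.373. The central zone held 25.6% to 27.0%, summits inside H3K4me3 made up 52.6% to 71.6%, and the width difference was 297 to 322.5 bp. Closed regions numbered 1839 to 3367, all above the 1673 with every library. Leaving out an ATAC list can only raise this number. Leaving out an H3K4me3 list changes the regions counted, from 13600 to 14027 or 16886, so this range is no measure of stability. H3K4me3 minus ATAC was 13.8 to 21.5 Mb in covered length and −13524 to −2985 in peaks. The order of open shares and of summits per region by width held in every setting run. That of summits per kb did not hold between the 2 narrowest classes with equal ATAC lists, without H3K4me3 replicate 1 and without ATAC replicate 2.

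Pairing equal replicate numbers of H3K4me3 and ATAC, chosen after seeing the data, left the differences at 17.6 Mb and −8254 peaks, with exact permutation p = 0.5 each, the smallest that 2 pairs can give. These libraries share only a number. The shares and widths have no test to which a replicate block could be added.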
